A study of Mus musculus with 6 samples.

Results

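The AP-1 and Egr immediate early factors were followed in BV2 cells with and without interleukin-4 (IL-4). They are the Fos proteins (Fos, Fosb, Fosl1 and Fosl2), the Jun proteins (Jun, Junb and Jund) and 3 Egr zinc-finger factors (Egr1, Egr2 and Egr3). They were taken by name, as every non-control probe whose transcript belongs to one of these symbols, which gave 11 of 39429 probes and 10 of 32451 genes. Fosl2 had 2 probes and each other gene had 1. All 11 probes were well above background on all 6 arrays, so all 10 genes were tested and none was lost to the filter on dim probes. BV2 cells are murine microglia, brain macrophages, that were immortalized into a line. Cells on poly-L-lysine-coated plates had recombinant murine IL-4 at 10 ng/ml or PBS in their medium for 24 hr, with 3 samples of each and 1 single-colour Agilent array per sample. The labels do not tie the samples to separate cultures, so the p-values cover only the scatter among these samples, and that scatter may be technical. The series text speaks of an untreated control, and the sample labels, which are followed here, of PBS.

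AP-1 is a dimer of basic leucine zipper proteins. Jun proteins can pair with one another or with a Fos protein, whereas Fos proteins need a partner such as Jun to bind DNA. The Egr proteins bind GC-rich sites through zinc fingers and are restrained by the corepressors Nab1 and Nab2. In macrophages some genes of both families, such as Fos and Egr1, are switched on within minutes of a stimulus and their transcripts are short-lived.

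The slide of each array was inferred. The file headers give all 3 IL-4 arrays and PBS replicate 1 the same scan date entry, with different array positions, and PBS replicates 2 and 3 another. Arrays that share an entry are called slide 1 and slide 2 here. Only slide 1 held both groups, and each result is given over all 6 arrays and against PBS replicate 1. The 75th percentile of the signal was 674 to 876 per array and no spot was saturated. Probes well above background made up the smallest share for IL-4 replicate 1 and PBS replicate 2 (87.9% and 88.9%), the arrays in the first position of each slide, and up to 98.0% elsewhere. Of 12 markers of microglia and macrophages, 11 had a probe and all 11 were well above background on every array. Their summed signal was 39528 to 43133 with IL-4 and 48728 to 51120 with PBS, and 3 of them fell by the test used here, Aif1, Lyz2 and Tyrobp. None of the tested markers of neurons, astrocytes, oligodendrocytes, fibroblasts, T cells, endothelial or erythroid cells passed, although most were also well above background, with Aqp4 and Pecam1 as the brightest. The part of these markers in the results below was not tested.

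The bases just upstream of the transcription starts are shown for Fos, Fosl2 and Fosb, whose values with IL-4 stood apart from PBS, for Egr2, and for Nab1, the Egr corepressor gene that fell most among the genes listed here. The sequences are from RefSeq on the mouse build GRCm38.p6, 5′ to 3′ on the strand of the gene, and 7 of the 10 members had an entry. Each window is the 250 bases before an annotated start, and capitals mark a motif match.
Fos, chr12:85473640-85473889, plus strand: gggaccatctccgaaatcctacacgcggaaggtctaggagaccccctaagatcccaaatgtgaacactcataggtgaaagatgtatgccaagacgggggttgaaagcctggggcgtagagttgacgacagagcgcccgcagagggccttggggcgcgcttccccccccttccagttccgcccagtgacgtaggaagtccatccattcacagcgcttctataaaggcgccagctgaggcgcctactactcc
Fosl2, chr5:32136222-32136471, plus strand: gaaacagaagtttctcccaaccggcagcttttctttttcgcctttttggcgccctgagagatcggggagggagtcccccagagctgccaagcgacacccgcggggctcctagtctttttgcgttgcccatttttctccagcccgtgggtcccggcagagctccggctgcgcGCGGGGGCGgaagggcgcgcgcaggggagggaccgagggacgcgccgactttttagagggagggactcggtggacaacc
For Fosb, Egr2 and the corepressor gene Nab1, whose windows overlap annotated transcripts, only the stretch around a match is shown, with 3 stretches for Nab1.
Fosb, chr7:19310078-19310104, minus strand: gacgcaagcGCGGGGGCGggtcccgga
Egr2, chr10:67537788-67537815, plus strand: ttcctcagtCCATATATGGgcagcgacg
Nab1, chr1:52500572-52500598, minus strand: ccccgcggcCGCCCACGCcgggatctg
Nab1, chr1:52500540-52500566, minus strand: ctcggccgcGCGTGGGCGggagccgga
Nab1, chr1:52500469-52500495, minus strand: cggggcgggGCGGGGGCGgcggaggtg

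Both strands were searched for the AP-1 heptamer TGACTCA, the cAMP response octamer TGACGTCA, the serum response CArG box, the Egr site GCGNGGGCG and the STAT6 palindrome, TTC and GAA spaced 4 bases apart. None of these motifs contains another. They were present in 4.46%, 1.55%, 1.47%, 4.70% and 5.85% of all 32851 RefSeq windows of this length. The 7 members with an entry had 11 windows, 5 of them for Egr2. The Egr site was found in 2 windows, those of Fosl2, 79 to 71 bases before the start, and Fosb, 50 to 42 bases before it. The CArG box, the site of serum response factor, was found in 4 of the 5 windows of Egr2, 3 of which overlap and share the box shown. The windows of Fos, Jun, Junb and Jund held none of these letter patterns. Sites more than 250 bases before a start were not searched, so these genes may hold such sites there. Fosl2 and Fosb windows were 64.4% and 68.8% G and C, that of Nab1 80.8%, against a median of 52.4% over all windows, and the Egr site is itself rich in G and C. Of the genes called in the lists below, Zfp36 and Nr4a1 also had an Egr site, Zfp36 a CArG box and Il6 an AP-1 heptamer. The window of Nab2 held none of the motifs. A match describes the sequence only.

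The comparison asked which of these genes differed in transcript level after a day with IL-4. None of the 10 passed the test (limma, adjusted p under 0.05 over 29752 genes), and 4 had an unadjusted p under 0.05, as did 10152 of all genes. Over all genes 0.807% were called higher and 2.54% lower with IL-4, 240 and 757 genes. Under normexp background correction the split of calls was 2032 higher to 2026 lower with the 75th percentile and 988 to 2108 with quantile scaling. Values with IL-4 lay wholly above those with PBS for 4 members, wholly below for 1, and overlapped for 5. The same was seen for 18.7% and 19.8% of all genes, and the counts of the 10 members were not tested against these shares. The 4 members whose arrays lay above were Fos, Fosb, Fosl1 and Fosl2, and the 1 below was Egr1. Fosl2 was counted by the brighter of its 2 probes, and by the dimmer one its groups overlapped. On the unscaled signal the groups of Fosb and of Egr1 overlapped. In cultures measured in bulk, fewer expressing cells and less RNA per cell cannot be told apart.

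**Figure D1:**
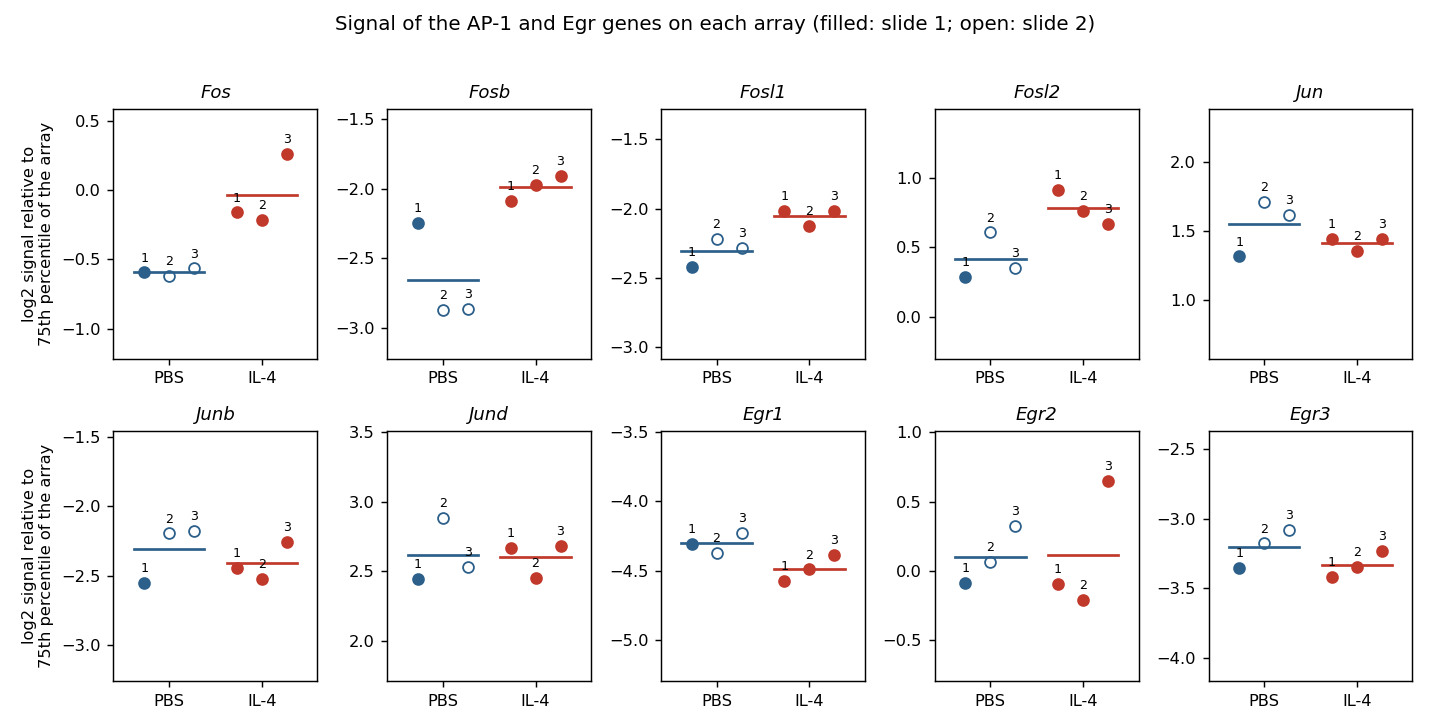
Each panel plots 1 gene, with log2 signal scaled to the array's 75th percentile on the vertical axis, over a span of the same size in every panel, and PBS and IL-4 on the horizontal axis. Points are single arrays numbered by replicate, filled for slide 1 and open for slide 2, and lines are group means. The IL-4 points of Fos, Fosb, Fosl1 and Fosl2 lie above all PBS points, and PBS replicate 1 of Fosb lies apart from the other PBS arrays, near the IL-4 points.

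Fos, the best-known immediate early gene and a partner of Jun in AP-1, had processed signals of 649, 738 and 879 on IL-4 replicates 1, 2 and 3. On PBS replicates 1, 2 and 3 they were 581, 439.5 and 490. Relative to the 75th percentile of each array, the scale of all log2 levels below, these were -0.16, -0.22 and 0.26 with IL-4 against -0.59, -0.62 and -0.57 with PBS. The 3 PBS arrays lay close together across both slides, the IL-4 arrays were all higher, and IL-4 replicate 3 stood well above the other 2. The log2 fold change was 0.55 ± 0.14 (SE; 95% interval 0.23 to 0.88; 1.47-fold), which did not pass (adjusted p = 0.058, limma). Its SD was 0.26 with IL-4 and 0.03 with PBS (n = 3 each). Against PBS replicate 1 the difference was again 0.55, since that array differed by only -0.0022 from the mean of the other PBS arrays. With slide as a block the interval was 0.09 to 1.02 (adjusted p = 0.40). Fos passed without PBS replicate 1 (0.55, adjusted p = 0.027), and also with median scaling, under normexp, with only probes detected on every array, and with the replicate number as a block (adjusted p = 0.026 to 0.048). Without PBS replicate 1, however, all IL-4 arrays lay on slide 1 and all PBS arrays on slide 2. In that setting 12654 of 29752 genes were called, and treatment and slide cannot be told apart.

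The Fos probe was printed 10 times on each array, which shows how far single spots scatter. The SD among the 10 spots was 0.080 to 0.090 on the log2 scale on every array. The 30 spots on IL-4 arrays ran from -0.36 to 0.38 and the 30 on PBS arrays from -0.73 to -0.46, without overlap on the relative scale. On the unscaled signal the lowest IL-4 spot, 604, lay below the highest PBS spot, 627. Spots of 1 array share 1 RNA sample, so they give the precision of the array reading and are not replicates.

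**Figure D2:**
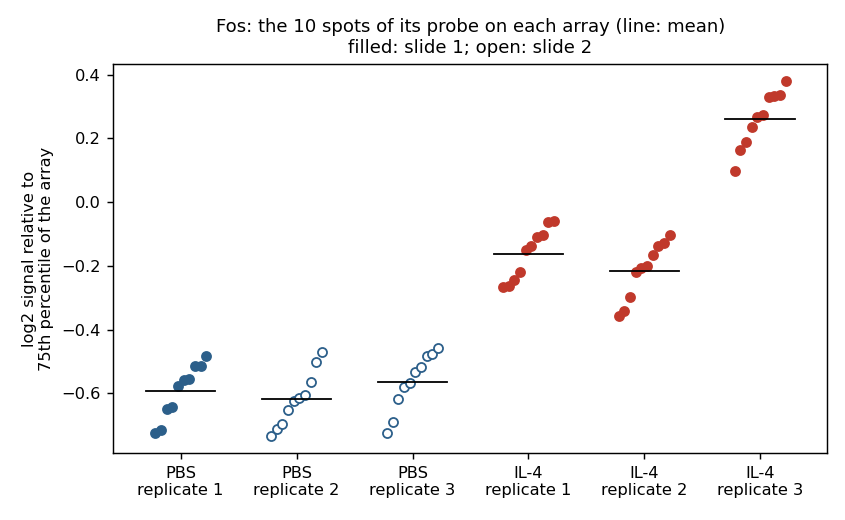
The 10 spots of the Fos probe are plotted for each array, sorted from low to high, as log2 signal scaled to the array's 75th percentile, with the mean as a line. Filled points are slide 1 and open points slide 2. All PBS spots lie at or below -0.46 and all IL-4 spots at or above -0.36, with IL-4 replicate 3 highest.

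Fosb, a Fos protein with long-lived splice forms, had signals of 171, 218 and 196 with IL-4 against 184, 92.1 and 99.7 with PBS. On the log2 scale the levels were -2.09, -1.97 and -1.91 with IL-4 and -2.25, -2.87 and -2.86 with PBS. PBS replicate 1, the array on the slide of the IL-4 samples, stood 0.62 above the mean of PBS replicates 2 and 3, close to the IL-4 values, although the groups did not overlap. The log2 fold change of 0.67 ± 0.18 (95% interval 0.26 to 1.08; 1.59-fold) was the largest of the 10 members and did not pass (adjusted p = 0.060). Against PBS replicate 1 it was 0.26, with an interval of -0.02 to 0.54 under the slide block (adjusted p = 0.52). Without PBS replicate 1, where treatment and slide coincide, it was 0.88 (adjusted p = 9.3e-04). It also passed under normexp and with only probes detected on every array (adjusted p = 0.023 to 0.043). The size of the Fosb difference therefore depended on which PBS arrays it was set against.

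Fosl1, also called Fra-1, gave 180, 196 and 181 with IL-4 and 163, 145 and 149 with PBS. The log2 levels were -2.02, -2.13 and -2.02 against -2.42, -2.22 and -2.28, so every IL-4 array lay above every PBS array, by a narrow margin between IL-4 replicate 2 and PBS replicate 2. IL-4 minus PBS came to 0.25 ± 0.10 on the log2 scale (95% interval 0.02 to 0.49; 1.19-fold; adjusted p = 0.13). It was 0.37 against PBS replicate 1, the lowest of the PBS arrays (interval 0.10 to 0.63 with the slide block, adjusted p = 0.34).

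Fosl2, or Fra-2, the other Fos-related antigen, was read by 2 probes that did not give the same result. The brighter one had signals of 1367, 1450 and 1167 with IL-4 and 1067, 1027 and 926 with PBS. Its log2 levels were 0.91, 0.76 and 0.67 with IL-4 and 0.28, 0.61 and 0.35 with PBS, with no overlap but with PBS replicate 2 close below IL-4 replicate 3. This probe's log2 fold change was 0.37 ± 0.13 (95% interval 0.08 to 0.65; 1.29-fold; adjusted p = 0.090), and 0.50 against PBS replicate 1 (interval 0.13 to 0.86 with the slide block, adjusted p = 0.34). Under normexp the brighter probe passed (adjusted p = 0.019 with either scaling). The dimmer Fosl2 probe gave 317, 361 and 338 with IL-4 against 341, 325 and 322 with PBS. Here the groups overlapped, and the difference was 0.0073 ± 0.11 (adjusted p = 0.97 over all tested probes) or 0.17 against PBS replicate 1. Both probes are assigned to the same transcript, and which of them follows Fosl2 better was not tested.

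Among the Jun proteins no separation of the groups was seen. Jun, the transactivating partner of Fos, had signals of 1971, 2194 and 1992 with IL-4 and 2184, 2203 and 2224 with PBS. The log2 levels were 1.44, 1.36 and 1.44 against 1.32, 1.71 and 1.62. PBS replicate 1 lay below all IL-4 arrays and the PBS arrays of slide 2 above them. Jun differed by -0.13 ± 0.13 on the log2 scale (95% interval -0.42 to 0.15, adjusted p = 0.46) over all arrays and 0.10 against PBS replicate 1 (interval -0.17 to 0.36 with the slide block), with opposite signs.

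Junb, often a weaker activator than Jun and a partner of the Batf proteins, gave 133, 149 and 153 with IL-4 and 150, 147 and 160 with PBS. Its log2 levels were -2.45, -2.52 and -2.26 against -2.55, -2.20 and -2.18, with PBS replicate 1 again the lowest of all arrays. The log2 fold change of -0.10 ± 0.14 (interval -0.42 to 0.21, adjusted p = 0.61) became 0.14 against PBS replicate 1 (interval -0.18 to 0.46). Jund, the Jun protein present in most resting cells, had 4616, 4682 and 4705 with IL-4 and 4771, 4970 and 4201 with PBS. Log2 levels of Jund were 2.67, 2.45 and 2.68 with IL-4 and 2.44, 2.88 and 2.53 with PBS, where the lowest and the highest array both belonged to PBS. Its log2 fold change was -0.02 ± 0.14 (interval -0.35 to 0.31, adjusted p = 0.93), and 0.15 against PBS replicate 1 (interval -0.25 to 0.56). For all 3 Jun genes the slide-block adjusted p was 0.81 to 0.86.

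**Figure D3:**
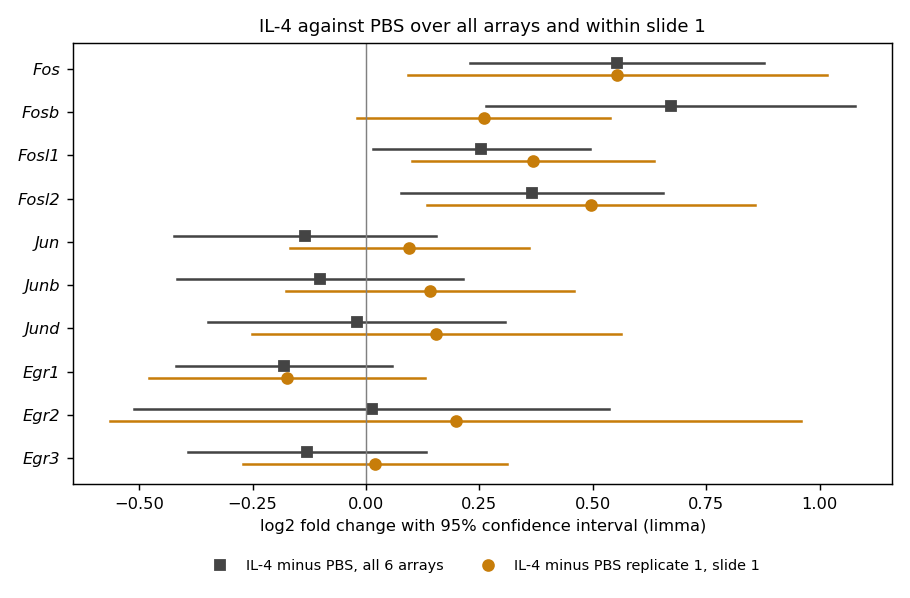
The log2 fold change of each of the 10 genes is plotted with its 95% confidence interval from limma, as grey squares for IL-4 minus PBS over all 6 arrays and as orange circles for IL-4 minus PBS replicate 1, with slide as a block. The squares of the 4 Fos genes lie to the right of 0 with intervals that leave out 0 before adjustment, and Fosb moves left to 0.26 within slide 1. The Jun genes and Egr3 change sign between the comparisons.

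The Egr genes did not share a sign over the 6 arrays, and none passed. Egr1, the family member most widely used as an activity marker, was the dimmest of the 11 probes, with signals of 30.4, 38.1 and 35.1 with IL-4 and 44.1, 32.5 and 38.8 with PBS. Scaled, these were -4.58, -4.49 and -4.39 against -4.31, -4.38 and -4.23, and the IL-4 arrays lay below all PBS arrays by as little as the gap between IL-4 replicate 3 and PBS replicate 2. IL-4 minus PBS was -0.18 ± 0.10 on the log2 scale (interval -0.42 to 0.06, adjusted p = 0.24), with -0.17 against PBS replicate 1 (interval -0.48 to 0.13, adjusted p = 0.72). It was the only member below 0 within slide 1. The lowest signal called well above background was 9.92 to 18.7 per array, so Egr1 was read not far above that limit.

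Egr2, a factor known to be induced by IL-4 in macrophages, had signals of 682, 740 and 1148 with IL-4 against 827, 706 and 908 with PBS. Its log2 levels were -0.09, -0.21 and 0.65 against -0.08, 0.07 and 0.32. IL-4 replicate 3 was the highest array and IL-4 replicate 2 the lowest, so the IL-4 group spanned the whole PBS group. The log2 fold change of 0.01 ± 0.23 had the widest interval of the members, -0.51 to 0.54 (adjusted p = 0.97), and was 0.20 against PBS replicate 1 (interval -0.56 to 0.96). An interval this wide holds differences of the size seen for Fosl1 and Fosl2 in either direction. IL-4 replicate 3 was also the highest array for Fos. Without it the Egr2 value was -0.25.

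Egr3, a close relative that shares the Nab corepressors, gave 67.9, 84.2 and 78.1 with IL-4 against 85.8, 74.5 and 85.9 with PBS. The log2 levels of -3.42, -3.35 and -3.23 overlapped those of -3.35, -3.18 and -3.08. Egr3 differed by -0.13 ± 0.11 on the log2 scale (interval -0.39 to 0.13, adjusted p = 0.43) and 0.02 against PBS replicate 1 (interval -0.27 to 0.31, adjusted p = 0.98).

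Within slide 1 all IL-4 arrays lay above PBS replicate 1 for 7 members, namely the 4 Fos and 3 Jun genes. They lay below it for Egr1 and on both sides of it for Egr2 and Egr3. The shares over all genes were 30.5% above and 25.5% below. The median difference of the 10 members within slide 1 was 0.18, with 9 above 0, beside a median of 0.0055 over all genes. Over all 6 arrays the members' median was -0.0042, with 5 on each side of 0, beside -0.05. PBS replicate 1 was lower than the mean of the other PBS arrays for 9 of the 10 members, with a median difference of -0.21, beside -0.08 over all genes. Because PBS replicate 1 was low for most members and enters every difference within slide 1, that comparison and this offset share 1 array. With slide as a block 0.0202% of genes were called higher and 0.0101% lower, 6 and 3 genes, with no member among them. By the signed difference from PBS replicate 1, ranked from the largest fall to the largest rise, Fos stood at percentile 98.9 of all genes. Fosl2 stood at 98.5, Fosl1 at 96.3 and Fosb at 91.3. Over all 6 arrays these 4 genes stood at 91.5, 85.0, 79.2 and 94.0 in that order, ranked in the same way.

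Fos had the largest difference from PBS replicate 1 among the members, and its pattern over the 6 arrays was set against those of 18994 tested genes with a symbol. The genes most like it were Adamts1, which encodes a secreted metalloproteinase (Pearson's r 0.995), the predicted gene 4930443O20Rik (0.990) and Trib1, a pseudokinase gene of the immediate early list (0.988). The 6 arrays hold 2 groups and 2 slides, which every gene shares, so r only describes the likeness. Adamts1 had a log2 fold change of 0.50 ± 0.15 (adjusted p = 0.072).

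Proteins that pair with or resemble AP-1 were next considered. Of 25 genes for AP-1 partners and other basic leucine zipper factors, 24 were tested (all but Atf7). Beside 0.807% called higher and 2.54% lower over all genes, 0 rose and 2 fell. They were Maf, a large Maf protein of macrophages, with a log2 fold change of -0.66 ± 0.13 (adjusted p = 0.044), and Cebpd, a C/EBP factor of the acute phase, with -0.54 ± 0.11 (adjusted p = 0.046). Within slide 1 they were -0.44 and -0.44. The median of the list was 0.02, and 0.16 within slide 1. Values with IL-4 were wholly above those with PBS for 7 of the 24 genes and wholly below for 8, beside 18.7% and 19.8% of all genes.

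The clearest difference close to the Egr proteins was in their corepressors. Nab1 had log2 levels of -0.21, 0.13 and 0.01 with IL-4 and 0.83, 1.15 and 1.34 with PBS. All IL-4 arrays were far below all PBS arrays, and PBS replicate 1 was the lowest of the PBS group. On the log2 scale Nab1 fell by 1.13 ± 0.16 (adjusted p = 0.026). Its difference was -0.86 within slide 1 (adjusted p = 0.18 with slide as a block). Nab2 fell from -1.04, -1.25 and -1.10 with PBS to -1.58, -1.64 and -1.75 with IL-4, a log2 fold change of -0.53 ± 0.11 (adjusted p = 0.046). Within slide 1 the Nab2 difference was -0.62 (adjusted p = 0.18), so for this gene it was no smaller there. A second, dimmer probe of Nab2 gave -0.24 ± 0.13 and did not pass. These 2 were the only calls among the 9 tested of 11 genes listed as Egr partners and corepressors, and 0 genes rose. Over all genes 0.807% were called higher and 2.54% lower. The other tested genes were Sp1, Sp3, Klf2, Klf3, Klf4, Klf6 and Klf10, so the list is broader than its name. Egr4 and Wt1 were not tested. The list's median was -0.30 over all arrays and also within slide 1. IL-4 arrays lay wholly above PBS arrays for 0 of the 9 tested genes and wholly below for 5, beside 18.7% and 19.8% of all genes.

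Upstream of the members, serum response factor and the ternary complex factors receive signals from the MAP kinases. The list held Srf, Elk1, Elk3 and Elk4 and, more broadly, Mrtfa, Mrtfb, Ets1, Ets2, Fli1 and Spi1. Of these 10 tested genes 0 rose and 0 fell, beside 0.807% and 2.54% of all genes. The median of these 10 was -0.14 over all arrays and -0.02 within slide 1. For 0 of the 10 the IL-4 arrays lay wholly above the PBS arrays, and for 3 wholly below, beside 18.7% and 19.8% of all genes. All 27 genes of MAP kinase signalling to AP-1 were tested. Beside 0.807% called higher and 2.54% lower over all genes, 0 rose and 3 fell. Among these, Mapk9, which encodes the Jun kinase JNK2, had a log2 fold change of -0.60 ± 0.10 (adjusted p = 0.035) and differed by -0.49 within slide 1. A second probe of Mapk9 gave -0.21 ± 0.10 without passing. The median of the list was -0.20, and -0.04 within slide 1. Of the 27 genes 1 had IL-4 arrays wholly above and 12 wholly below, beside 18.7% and 19.8% of all genes.

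The list of other immediate early genes had calls in the upward direction. Of 35 tested, 5 rose and 0 fell, beside 0.807% and 2.54% of all genes. The list's median was 0.09 and, within slide 1, 0.19. Nr4a1, an orphan nuclear receptor gene, rose by 0.69 ± 0.11 (adjusted p = 0.029) and Zfp36, whose product tristetraprolin speeds the decay of cytokine transcripts, by 0.71 ± 0.12 (adjusted p = 0.035). Ptgs2, the inducible cyclooxygenase, rose by 0.76 ± 0.14 (adjusted p = 0.040). Trib1 rose by 0.77 ± 0.15 (adjusted p = 0.045), while its second probe gave 0.40 ± 0.18 and did not pass. Gadd45a, a stress-response gene named after its values were seen, rose by 0.67 ± 0.13 (adjusted p = 0.045). The differences from PBS replicate 1 were 0.56, 0.57, 1.05, 0.86 and 0.64 in the order given. The count of 0 falls held with the 75th percentile of probes detected on every array, and 1 to 3 genes fell under the other scalings, both normexp settings and the authors' deposited table. IL-4 arrays lay wholly above PBS arrays for 14 of the 35 genes and wholly below for 5, beside 18.7% and 19.8% of all genes.

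Another list held 35 tested genes reported as AP-1 or Egr targets in other systems. Beside 0.807% called higher and 2.54% lower over all genes, 3 rose and 0 fell. They were Hbegf, an epidermal growth factor receptor ligand (1.06 ± 0.13, adjusted p = 0.025), the cytokine gene Il6 (1.44 ± 0.21, adjusted p = 0.026) and the monocyte chemoattractant Ccl2 (0.93 ± 0.14, adjusted p = 0.028). Within slide 1 they differed by 1.23, 1.20 and 1.11. The list's median was 0.03, and 0.10 within slide 1. Of the 35 genes 9 had IL-4 arrays wholly above and 9 wholly below, beside 18.7% and 19.8% of all genes. Whether any of these 3 follows the Fos genes in BV2 cells was not tested.

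None of the 15 genes called across the 6 lists was called with slide as a block, where their adjusted p ran from 0.070 to 0.32. All 15 calls were also lost when IL-4 replicate 1, 2 or 3, or PBS replicate 2 or 3, was left out (adjusted p 0.10 to 0.19). All 15 were kept without PBS replicate 1, where no slide held both groups and 12654 genes were called. With no filter on dim probes and all arrays kept, none of the 15 passed (adjusted p 0.057 to 0.079). With the 75th percentile of probes detected on every array 10 passed, and 11 did with the mean of a gene's probes or with outlier spots kept. Nab2 was among the calls lost in each of these settings.

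**Figure D4:**
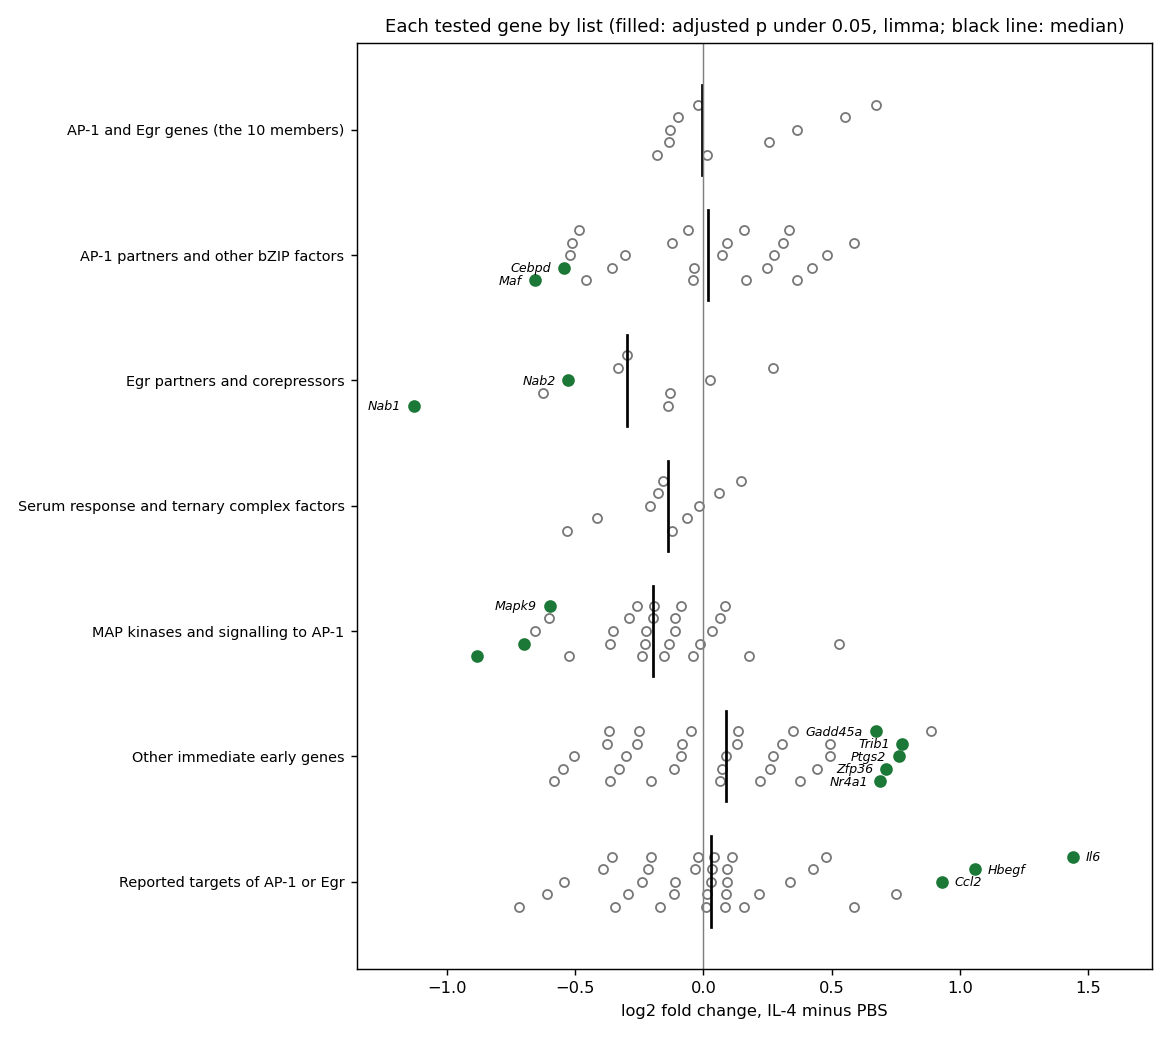
Each circle is 1 tested gene, placed by its log2 fold change, IL-4 minus PBS over all 6 arrays, in the row of its list, with the 10 members in the top row. Filled green circles passed limma's test, most of them named, and black lines are medians. No member is filled, both filled Egr partners lie below 0, and the filled genes of the other immediate early and target lists all lie above 0.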

How the data were processed

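The authors deposited scanner files of single-colour (Cy3) arrays, which give each spot's intensity on a linear scale. Per the file headers they come from Agilent Feature Extraction 11.0.1.1, which also subtracted the background to make the processed signal, and arrays were not scaled to one another. The authors' deposited value table is, from its values, on a log2 scale with a median of 6.92 in every column, and was used only as an alternative. Its normalization was not given in the sources used here. One description label names human blood against all other labels and was disregarded.

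Spots flagged as outliers (87 to 394 per array) were left out and copies of a probe averaged. Log2 signals were set relative to the 75th percentile of each array. Probes well above background on all arrays of a group were tested, which gave 35979 probes, and the brightest stood for its gene. Symbols were matched through unversioned accessions to RefSeq (GRCm38.p6), which named 27234 probes (69.1%). limma 3.58.1 in R 4.3.3 (lmFit, eBayes) compared IL-4 with PBS with no covariate, adjusted by the Benjamini-Hochberg method over all genes, and again with slide as a block, where the lone PBS array of slide 1 was taken to vary like the rest. The steps were tested on simulated data.

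The members and gene lists were chosen with earlier results of these data known. Named were all members, up to 4 called genes per list and direction by lowest adjusted p, and the 3 genes most like the member that differed most from PBS replicate 1. Of the genes this rule named, 2 are not reported here. Lists are described by counts and medians, with no test of a list. The list genes Atf7, Egr4, Wt1, Mkl1, Mkl2, Nr4a3, Cyr61, Ctgf and Mmp9 were not analysed here, of which Mkl1, Mkl2, Cyr61 and Ctgf are older names of genes that were. Alternatives covered scaling, background correction, the dim-probe filter, probe choice, outlier flags, slide, replicate number and each array left out. The number of arrays limits the precision.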

Additional observations from a re-analysis of the deposited data

How the results depend on the processing

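The counts of called genes moved under most of the 20 alternatives. Genes called higher and lower were 833 and 1804 with quantile normalization, 531 and 1202 with median scaling, 107 and 416 with the 75th percentile of detected probes (those well above background on all 6 arrays), and 674 and 1625 with the authors' deposited table. They were 2032 and 2026 under normexp with the 75th percentile and 988 and 2108 under normexp with quantile. With no filter on dim probes they were 5 and 10, with only such detected probes 1830 and 1978, and with the mean of a gene's probes 117 and 488. Keeping outlier spots gave 127 higher and 549 lower. With slide as a block they were 6 and 3, on slide 1 alone 1 and 0, and 0 and 0 once IL-4 replicate 1 and PBS replicate 2, in the first position of their slides, were left out. Leaving out 1 array gave 0 to 5812 higher and 0 to 6842 lower. The highest counts came without PBS replicate 1, when each group lay on its own slide. The cause of these shifts was not tested.

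No member was called lower under any of them. Members called higher numbered 1 with median scaling (Fos), 3 under each normexp setting (Fos, Fosb and Fosl2), 2 with only detected probes (Fos and Fosb), and 0 to 2 with 1 array left out. The replicate number as a block gave 1804 genes higher and 1966 lower and 1 member higher (Fos, adjusted p = 0.044). Same-numbered samples deviated together with r of 0.08, -0.02 and 0.30, and not every sample correlated best with its own number, so the numbers were not taken as a pairing.

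Fos, Fosb, Fosl1, Fosl2 and Egr1 kept their sign under all 20 alternatives (0.40 to 0.64, 0.26 to 0.88, 0.13 to 0.37, 0.19 to 0.50 and -0.23 to -0.07). No alternative used the dimmer Fosl2 probe alone, which gave 0.0073. Jun, Junb and Egr3 turned to 0.10, 0.14 and 0.020 with slide as a block and on slide 1 alone, and so did Jund, to 0.15. Jund also turned to 0.025 with the 75th percentile of detected probes, 0.041 and 0.046 under normexp with the 75th percentile and quantile, 9.6e-05 with the authors' deposited table, 0.0050 with outlier spots kept and 0.076 without the first slide positions. With 1 array left out it ranged from -0.11 to 0.11, above 0 without IL-4 replicate 2 (0.054) or PBS replicate 2. Egr2 turned to -0.0043 under normexp with the 75th percentile, and with 1 array left out ranged from -0.25 (without IL-4 replicate 3) to 0.18, with -0.08 without PBS replicate 1 and -0.0056 without PBS replicate 2. None of these reversed values passed the test. Counts of called genes in the 6 lists moved in 99 of 240 list, direction and setting combinations.

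Normexp on the mean spot signal was not run, and the median spot signal took its place. That choice, and leaving out the first positions, were added after seeing the data. By the scan date entries, from which slides were inferred, only 1 PBS array shares a slide with the IL-4 arrays, so differences between slides and between the other PBS samples cannot be told apart. Egr1 was the dimmest member, although its SE was the smallest of the 10 (0.10).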
